A study of Rattus norvegicus with 8 samples.

Results

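Cyclic nucleotide phosphodiesterases were examined in PC12 cells with and without forskolin, through every probe set whose only annotated gene symbol was Pde4d, Pde4b, Pde4a, Pde1b, Pde3b, Pde7a, Pde8a or Pde10a. The rule found 14 probe sets for these 8 genes of 13810 named on the chips, 11 on chip A and 3 on chip B, among 31142 probe sets on both chips together. PC12 is a rat line grown from a tumour of the adrenal medulla. Forskolin, a diterpene made by a plant, directly switches on adenylyl cyclase. On each chip, total RNA of 2 forskolin samples and 2 samples without forskolin was hybridised, 8 arrays in all, and no genetic change is named in the labels of either group. The sources used here do not give the dose and duration of forskolin, or what the control received in its place. Since nothing says that replicates came from separate cultures, p-values reflect only how these samples varied, and that variation may be technical.

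Phosphodiesterases break the phosphodiester ring of cyclic AMP or cyclic GMP and so end the signal that the cyclases begin. Pde4a, Pde4b and Pde4d encode cyclic AMP-specific enzymes of the family inhibited by rolipram, and Pde7a and Pde8a encode cyclic AMP-specific enzymes that rolipram does not inhibit. Pde3b encodes a cyclic AMP-hydrolysing enzyme that cyclic GMP inhibits, while Pde1b (stimulated by calcium and calmodulin) and Pde10a (abundant in striatal neurons) encode enzymes that hydrolyse both nucleotides. Several of these genes have more than 1 promoter, and their transcripts encode long and short forms of the enzyme.

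The labels and cells were checked first. Of 8 reference genes listed as responsive to cyclic AMP, 6 lay above the brightness filter without forskolin (Crem, Egr1, Junb, Nr4a1, Per1 and Sik1). The filter is the 30th percentile of signal on the chip. Limma called all 6 higher with forskolin on their brightest chip A probe set, from 0.71 (log2) for Per1 to 2.77 for Nr4a1. Over all tested probe sets of chip A, 2.03% were called higher and 1.26% lower. The list was chosen with earlier results of these data known, so this check could hardly fail. Fos (5.22 without and 9.25 with forskolin) and Nr4a2 (6.62 and 8.95) were also called, but their control means lay under the filter level of 7.02, so they entered the test through their forskolin arrays and do not count towards this check. The other Fos probe set measured 0.06 and was not called. Of 11 markers of PC12 or chromaffin cells 9 had a probe set. In order of signal among all probe sets of chip A, Phox2a, Chgb and Th lay at percentiles 99.0, 98.3 and 97.7, whereas Slc18a1 and Dbh lay under the filter. Phox2a was called higher with forskolin, by 0.41 (log2, limma adjusted p = 1.02e-04), and the other tested markers of this list were not called. Of 20 markers found for fibroblasts, adrenal cortex, glia, and blood and endothelium, 9 passed the filter, Col3a1 at percentile 98.0 among them. Limma called none, and 1 of the 9 had an unadjusted p under 0.05, against 17.4% of all tested probe sets of chip A. On chip A the array medians ranged from 8.15 to 8.17 (log2), and those of chip B from 6.77 to 6.79.

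Pde4d and Pde4b rose with forskolin. Pde4d rose 1.94-fold on chip A and 2.09-fold on chip B. The tested Pde4b probe set rose 1.72-fold on chip A, and the Pde4b probe set under the filter rose 1.305-fold. The third PDE4 gene measured, Pde4a, and the 5 genes of the other families were not called on any of their tested probe sets. A call here is a Benjamini-Hochberg adjusted p under 0.05 from limma, over all probe sets of the chip whose mean linear signal reached its 30th percentile. Of the 11 probe sets that passed this filter, 3 were called higher and none lower, and 8 were not called. On chip A 2 of 8 tested probe sets were called higher, where 2.03% of all tested probe sets were called higher and 1.26% lower. Of these 2, the Pde4b probe set entered the test only through its forskolin arrays, so the count is not read against that background. On chip B 1 of 3 was called higher, against a background of 0.150% higher and 0.00935% lower. An unadjusted p under 0.05 was found in 5 of the 8 on chip A, the same Pde4b probe set among them, and in 1 of the 3 on chip B. The shares over all tested probe sets were 17.4% and 4.97%, and the chip A count is again not read against its share. The remaining 3 probe sets, 1 each of Pde4d, Pde4b and Pde10a on chip A, were too dim to enter the test and are given by their values.

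**Figure D1:**
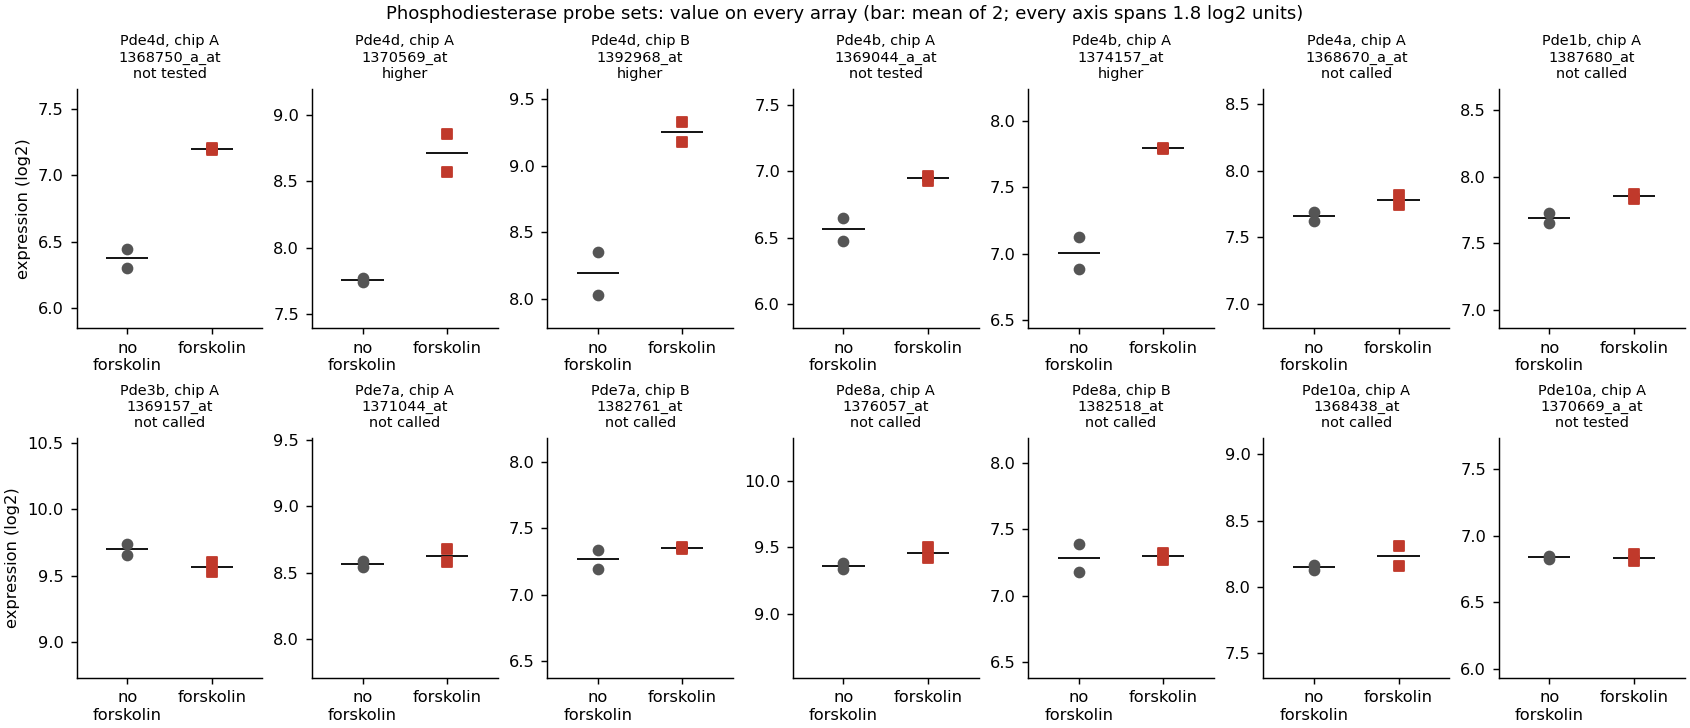
Deposited log2 value of each of the 14 phosphodiesterase probe sets on every array, with circles for no forskolin, squares for forskolin and a bar at the mean of 2 arrays; all axes span the same range. The 3 Pde4d and 2 Pde4b panels show the forskolin arrays above the control arrays by 0.38 to 1.07 (log2), and in the other 9 panels the means differ by at most 0.16.

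Promoter sequence is shown for both genes that rose, and for Pde10a as a gene that was not called but whose window holds the same letters. The cyclic AMP response element, the site that CREB and CREM proteins bind, has the full sequence TGACGTCA and the half-site TGACG, which reads CGTCA on the other strand. In the RefSeq table (assembly GRCr8), 5 of the 8 genes matched, with 14 annotated starts. Pde1b, Pde3b and Pde7a were not matched. For Pde4d and Pde10a only the windows that hold a half-site are printed, and for Pde4b both windows are. Each window covers the 250 bases before a start, 5′ to 3′ on the strand of the gene, and capitals mark half-sites on either strand:

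Pde4d chr2:42592499-42592748 (+): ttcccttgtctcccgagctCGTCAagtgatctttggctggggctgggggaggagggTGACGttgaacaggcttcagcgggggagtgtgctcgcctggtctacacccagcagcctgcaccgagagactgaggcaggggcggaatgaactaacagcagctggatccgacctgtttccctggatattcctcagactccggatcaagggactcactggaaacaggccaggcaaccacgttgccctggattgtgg

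Pde4d chr2:42767367-42767616 (+): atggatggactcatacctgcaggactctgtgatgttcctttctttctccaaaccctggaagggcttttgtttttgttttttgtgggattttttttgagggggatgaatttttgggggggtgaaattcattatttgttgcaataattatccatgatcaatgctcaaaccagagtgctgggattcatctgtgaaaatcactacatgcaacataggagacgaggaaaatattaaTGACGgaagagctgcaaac

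Pde4b chr5:122028706-122028955 (+): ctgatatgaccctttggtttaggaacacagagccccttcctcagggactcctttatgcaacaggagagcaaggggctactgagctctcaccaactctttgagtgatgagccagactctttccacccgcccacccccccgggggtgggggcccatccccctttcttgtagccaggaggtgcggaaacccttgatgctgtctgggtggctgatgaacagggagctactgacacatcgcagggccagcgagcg

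Pde4b chr5:122222323-122222572 (+): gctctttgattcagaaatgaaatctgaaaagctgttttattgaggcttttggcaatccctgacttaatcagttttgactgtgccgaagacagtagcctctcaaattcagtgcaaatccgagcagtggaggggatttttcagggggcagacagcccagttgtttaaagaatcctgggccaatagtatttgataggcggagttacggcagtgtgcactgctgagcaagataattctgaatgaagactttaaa

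Pde10a chr1:54765669-54765918 (-): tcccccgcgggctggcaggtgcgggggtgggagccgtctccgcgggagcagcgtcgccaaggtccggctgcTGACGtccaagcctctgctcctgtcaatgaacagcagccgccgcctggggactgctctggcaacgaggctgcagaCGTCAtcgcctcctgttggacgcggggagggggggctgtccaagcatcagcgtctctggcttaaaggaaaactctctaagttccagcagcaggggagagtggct

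The full sequence occurred in 0 of the 14 windows and in 1.59% of 33469 windows of all genes. A half-site occurred in 6 of the 14 and in 18.2% of all windows, where a full sequence also counts as holding a half-site. Pde4d had 3 half-sites in 2 of its 5 windows, at 231 and 194 bases before the first start shown and at 19 bases before the second. Neither window of Pde4b held one. Pde4a had 1 in each of 2 of its 4 windows, 11 and 18 bases before the start, Pde8a had 1 in its only window, 86 bases before the start, and Pde10a had 2 in 1 of its 2 windows, 179 and 104 bases before the start. These matches describe letters and not binding, the windows leave out everything farther away, and the arrays do not show which start was used.

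Pde4d, a cyclic AMP-specific phosphodiesterase with many isoforms, was measured by 3 probe sets. On chip A, 1370569_at read 7.74 and 7.77 (log2) without forskolin and 8.57 and 8.85 with it. The 2 groups did not overlap, and the forskolin arrays differed from each other by more than the control arrays did. The means were 7.76 ± 0.02 and 8.71 ± 0.20 (SD, n = 2). The change was 0.95 ± 0.08 (log2, SE), with a 95% interval of 0.77 to 1.14, or 1.70-fold to 2.20-fold (limma adjusted p = 2.64e-04). Among tested probe sets of chip A it was the 41st largest rise.

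On chip B, the Pde4d probe set 1392968_at read 8.03 and 8.35 without forskolin and 9.18 and 9.33 with it. The lower forskolin array again stood above the higher control array. The means were 8.19 ± 0.23 and 9.26 ± 0.11 (SD, n = 2), a change of 1.07 ± 0.12 (log2, SE; limma adjusted p = 0.0320). It was the 8th largest rise among tested probe sets of that chip. Without forskolin replicate 2 the change was 0.99 and the limma adjusted p was 0.0910, above the threshold. The chips were scaled separately, so these levels are not compared with those of chip A.

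The third Pde4d probe set, 1368750_a_at on chip A, lay at percentile 27.3 of signal and under the filter. It read 6.30 and 6.45 without forskolin and 7.19 and 7.20 with it. Both forskolin arrays were above both control arrays, by a mean of 0.82 (log2). In the fit of all probe sets with no filter, the 95% interval was 0.68 to 0.96 and the limma adjusted p was 2.44e-04, and it stayed called in that fit without each array in turn (0.75 to 0.89). Thus each of the 3 Pde4d probe sets gave a rise of between 1.77-fold and 2.09-fold, with overlapping intervals. The 2 probe sets of chip A were read on the same 4 arrays and so are not independent replicates of each other. The labels do not say whether chip B received the same RNA samples, so its independence of chip A is unknown.

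Pde4b, a relative of Pde4d in the same family, had 2 probe sets on chip A and none on chip B. The brighter one, 1374157_at, read 7.13 and 6.89 without forskolin and 7.80 and 7.79 with it. Here the forskolin arrays nearly coincided and the control arrays were the more spread, with means of 7.01 ± 0.17 and 7.79 ± 0.01 (log2, SD, n = 2). The change was 0.79 ± 0.08 (log2, SE) with a 95% interval of 0.61 to 0.96 (limma adjusted p = 5.33e-04). It was the 56th largest rise among tested probe sets of the chip. Its control mean lay just under the level of the filter (7.02), which it passed through its forskolin arrays. Without detection calls, the distance of this control level from background is unknown, and with it the true size of the rise.

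The dimmer Pde4b probe set, 1369044_a_at, was under the filter at percentile 26.0. It read 6.65 and 6.48 without forskolin and 6.96 and 6.93 with it. The groups did not overlap, but the gap was smaller, 0.38 (log2). With no filter, limma gave it a 95% interval of 0.24 to 0.53, below the interval of the brighter probe set in that fit (0.61 to 0.96), and an adjusted p of 0.0248. That call was lost without no forskolin replicate 2 (adjusted p = 0.0580), forskolin replicate 1 (0.0765) or forskolin replicate 2 (0.0576). Within arrays, the change of the brighter probe set exceeded that of the dimmer one by 0.40 (log2), and the groups of this difference did not overlap. With 2 arrays against 2, the exact two-sided permutation p was 0.333, the smallest the design allows.

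**Figure D2:**
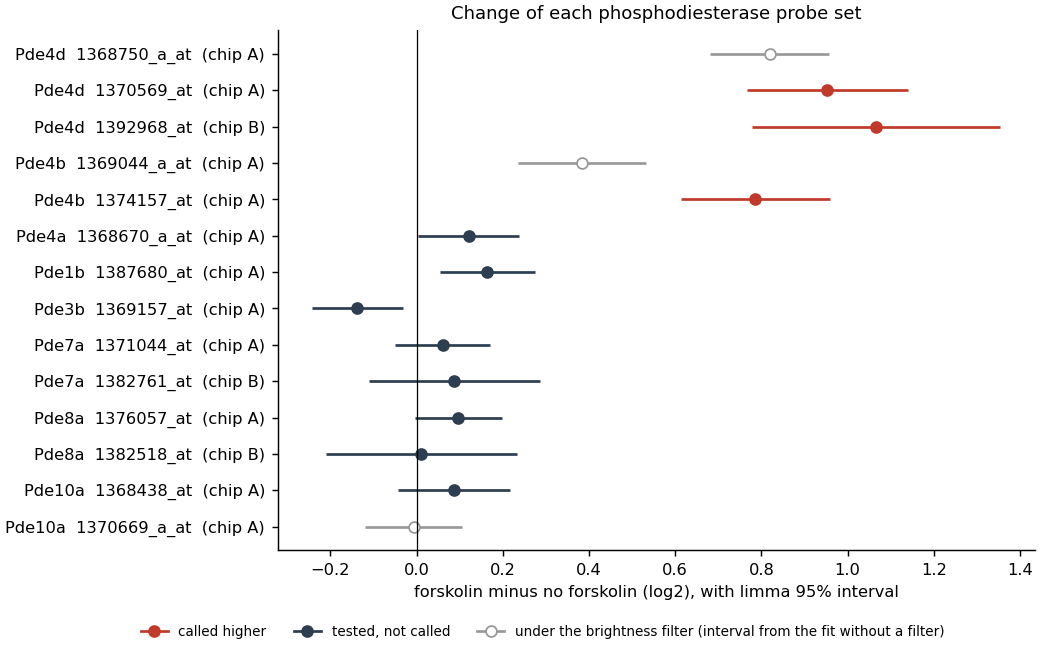
Change with forskolin (log2, forskolin minus no forskolin) of each phosphodiesterase probe set, as a point with the 95% interval of limma; open symbols are probe sets under the brightness filter, with intervals from the fit of all probe sets. The 3 Pde4d and 2 Pde4b intervals begin at 0.24 or higher, while those of the other genes end at or below 0.29.

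Pde4a, the third cyclic AMP-specific gene of this family on the chips, read 7.69 and 7.62 without forskolin and 7.82 and 7.74 with it on its only probe set, 1368670_a_at. The forskolin arrays were the higher ones, but narrowly. The change was 0.12 with a 95% interval of 0.0036 to 0.24, so a rise above 1.18-fold lay outside it. The unadjusted limma p was 0.0447 and the adjusted p 0.273. Within arrays, the change of Pde4d (1370569_at) exceeded that of Pde4a by 0.83 and that of Pde4b (1374157_at) did so by 0.66 (log2). Neither difference overlapped between the groups, each with the exact permutation p of 0.333 that is the smallest possible here. The changes of Pde4d and Pde4b differed by 0.17, and for that difference the groups overlapped (exact permutation p = 0.667). These comparisons belong to a family of 5 pairs, in which no pair can pass a threshold of 0.05 before or after adjustment. They were read on the same arrays as the calls, and so give no separate support for them.

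Pde1b, the calcium- and calmodulin-stimulated enzyme, had the largest change among the uncalled genes. Its probe set 1387680_at read 7.72 and 7.65 without forskolin and 7.83 and 7.87 with it. The groups did not overlap, at a change of 0.16 (log2; 95% interval 0.05 to 0.27; adjusted p = 0.131, limma). The unadjusted limma p was 0.00873, which did not hold after adjustment over the chip.

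Pde3b, the cyclic GMP-inhibited enzyme, was the only tested gene of the 8 whose forskolin arrays lay lower. Its probe set 1369157_at read 9.66 and 9.74 without forskolin and 9.60 and 9.53 with it. The change of -0.14 had a 95% interval from -0.24 to -0.03, an unadjusted limma p of 0.0166 and an adjusted p of 0.177. Groups that do not overlap are common on chip A: that held in either direction for 46.4% of all its probe sets, and for 8 of the 11 phosphodiesterase probe sets. On chip B it held for 32.4% of all probe sets and for 2 of these 3.

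Pde7a, a cyclic AMP-specific enzyme, was measured on both chips. On chip A, 1371044_at read 8.55 and 8.59 without forskolin and 8.58 and 8.68 with it, and the groups overlapped. The chip B probe set 1382761_at read 7.19 and 7.34 without forskolin and 7.35 and 7.36 with it, higher by a margin far smaller than the spread of its control arrays. The changes were 0.06 (95% interval -0.05 to 0.17) and 0.09 (-0.11 to 0.29), neither of them called by limma (adjusted p = 0.557 and 1).

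Pde8a, the other cyclic AMP-specific gene outside the PDE4 family, also had a probe set on each chip. On chip A, 1376057_at read 9.34 and 9.38 without forskolin and 9.42 and 9.50 with it. The change was 0.10 (95% interval -0.0035 to 0.20, limma adjusted p = 0.301). On chip B, 1382518_at read 7.18 and 7.39 without forskolin and 7.32 and 7.27 with it. The forskolin values lay between the control values there, and the change was 0.01 (95% interval -0.21 to 0.23, limma adjusted p = 1).

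Pde10a, the dual enzyme, had 2 probe sets on chip A. The brighter, 1368438_at, read 8.17 and 8.13 without forskolin and 8.16 and 8.31 with it, so that 1 forskolin array stood above the other 3 arrays. Its change was 0.09 (95% interval -0.04 to 0.22, limma adjusted p = 0.467). The dimmer, 1370669_a_at, was under the filter and read 6.83 and 6.85 without forskolin and 6.86 and 6.81 with it, a difference of -0.01. For the 6 uncalled probe sets of chip A, the upper ends of the intervals reached at most 1.21-fold, and on chip B at most 1.22-fold. Rises of the size seen for Pde4d and Pde4b thus lay outside the intervals of the uncalled genes.

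**Figure D3:**
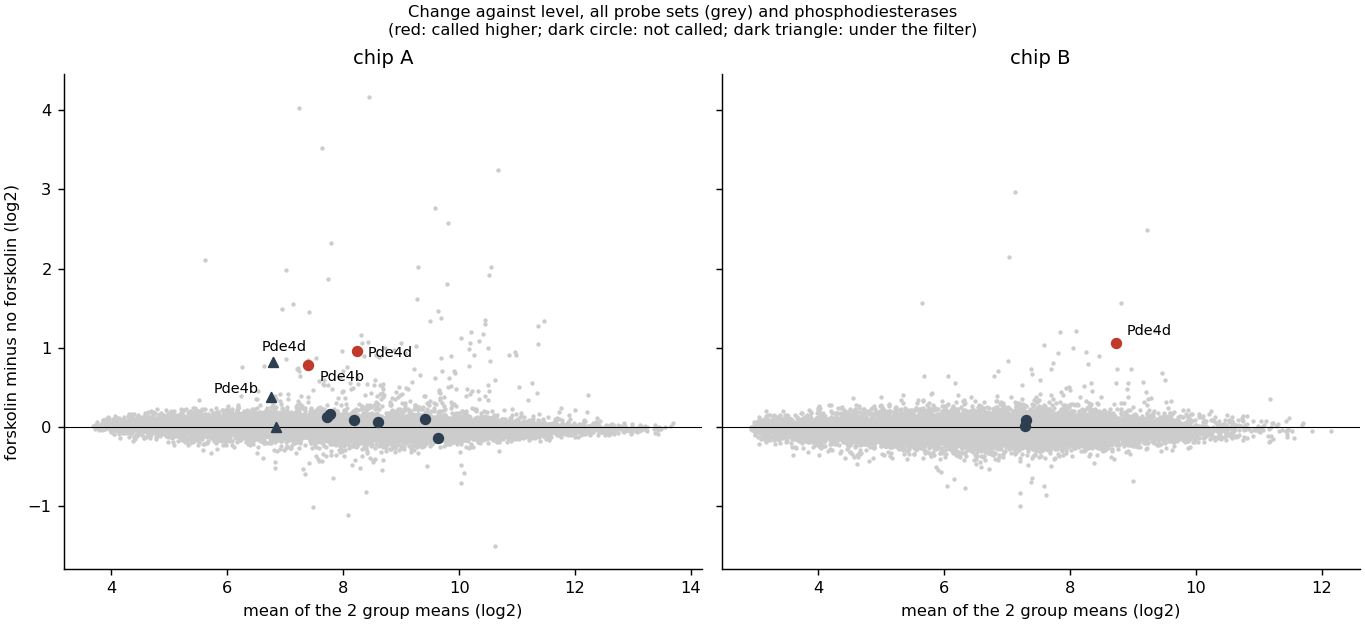
Change with forskolin (log2) against the mean of the 2 group means (log2) for every probe set of chip A (left) and chip B (right) in grey, with the phosphodiesterases in red (called higher), dark circles (tested, not called) or dark triangles (under the filter). The red points stand at 0.79 and 0.95 on chip A and at 1.07 on chip B, among the larger rises of each chip but below its largest.

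Across all 11 phosphodiesterase probe sets of chip A, dim ones included, 9 changes were above 0 and 2 below, with a median of 0.12 (log2). The median change of all 15866 probe sets on that chip was 0.00. The 3 chip B changes were all above 0, with a median of 0.09, where the median of all 15276 probe sets was -0.02. Outside Pde4d and Pde4b no chip A change above 0 exceeded 0.16, so the direction of the uncalled genes rests on small values. On chip B, Pde7a measured 0.09 and Pde8a 0.01, and the sign of Pde8a varied with the array left out.

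By the distance between their 4 array values, each taken relative to the mean of the control arrays, the genes nearest to Pde4d (1370569_at) on chip A were Cited2 (distance 0.15, log2), Mat2a (0.19), Pvr (0.19), Crem (0.20) and Bambi (0.20). Those nearest to Pde4b (1374157_at) were Bhlhe40 (0.16), Bdkrb2 (0.16), Zfand2a (0.17), Crem (0.18) and Lpin1 (0.18). Crem, which encodes activators and repressors that bind the cyclic AMP response element, appeared in both with the same probe set, which changed by 0.88 (log2). Other Crem probe sets gave other sizes: on chip A those under the filter measured 2.11 and 0.24, and on chip B those called measured 2.49 and 2.15. The probe set at 2.15 had a control mean of 5.96, under the chip B filter level of 6.02, and passed through its forskolin arrays. A further Crem probe set of chip B, under the filter, measured 1.56. On chip B, Zrsr2-ps1 (0.15), Nr4a3 (0.15), Mab21l1 (0.22), Ankrd34b (0.23) and Tp53rkb (0.42) were nearest to Pde4d (1392968_at). The measure covers 4 arrays of 1 chip and mainly finds genes with a change of like size.

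The other phosphodiesterase genes of the rat genome were taken as a list of 16, of which 14 had a probe set and 10 were tested. Limma called none of them. Over all tested probe sets, 2.03% were called higher and 1.26% lower on chip A, and 0.150% and 0.00935% on chip B. An unadjusted p under 0.05 was found in 2 of 10, Pde6d and Pde5a. The share over all tested probe sets was 17.4% (chip A) and 4.97% (chip B). Pde5a entered the test only through its forskolin arrays, so this count is not read against those shares. Pde6d, which encodes a prenyl-binding protein named after a phosphodiesterase of photoreceptors, measured -0.15 (log2, limma adjusted p = 0.0822, but 0.0323 with the arrays centred on their medians). Pde5a, a cyclic GMP-specific enzyme, measured 0.15 (limma adjusted p = 0.254), from a control mean of 7.01, just under the filter level of 7.02. Pde2a, an enzyme stimulated by cyclic GMP, measured 0.03 with a 95% interval of -0.05 to 0.10. Pde4c, the fourth gene of the PDE4 family, was tested on chip B, where it measured -0.06 with a 95% interval of -0.33 to 0.21 (limma adjusted p = 1). Pde1a, Pde1c, Pde3a and Pde6a were under the filter.

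Of the genes that make cyclic nucleotides, 12 of 23 were tested (cyclases, natriuretic peptide receptors and G protein subunits), and limma called none. Of these 12, 11 were tested on chip A and 1 on chip B. Gnas, the stimulatory G protein subunit that activates adenylyl cyclase, measured 0.05 (limma adjusted p = 0.281). Gnas was the 1 gene of 12 with an unadjusted p under 0.05, against the same 17.4% on chip A and 4.97% on chip B. Its other tested probe set measured 0.01. Adcy6, an adenylyl cyclase, measured -0.07 (0.411) and -0.03 on its other probe set. None of 16 tested readers of cyclic nucleotides, such as subunits of protein kinase A and gated channels, was called. Of these 16, all on chip A, 2 had an unadjusted p under 0.05, against the same 17.4%. Over all tested probe sets, 2.03% were called higher and 1.26% lower on chip A, and 0.150% and 0.00935% on chip B. None called among 12 or 16 genes is near those shares. Hcn4, a pacemaker channel, measured 0.16 (limma adjusted p = 0.136), and Prkar2a, a regulatory subunit of protein kinase A, -0.10 (0.214). The other tested Prkar2a probe set measured 0.05, in the opposite direction, and was not called.

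Of 13 tested anchors and partners of phosphodiesterases and protein kinase A, 11 were tested on chip A and 2 on chip B. Ndel1, on chip A, alone was called. Over all tested probe sets, 2.03% were called higher on chip A and 0.150% on chip B. An unadjusted p under 0.05 was found in 2 of the 13, against 17.4% (chip A) and 4.97% (chip B) of all tested probe sets. Ndel1, a partner of dynein and Lis1 at the centrosome, read higher by 0.23 (log2, limma adjusted p = 0.0329), a call lost without no forskolin replicate 1 (0.0715) or forskolin replicate 2 (0.143), with no filter (0.0525) and with the replicate number as a block (0.0588). Akap11, an anchor of protein kinase A, measured 0.13 on chip A (limma adjusted p = 0.142) and -0.01 on chip B (1). Pde4dip, named for its binding to Pde4d and known as myomegalin, measured -0.06 (limma adjusted p = 0.502), and 0.03 on its other tested probe set. The medians of these 4 lists lay between -0.02 and -0.01 (log2), where the median of all tested probe sets was -0.01 on chip A and -0.03 on chip B.

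**Figure D4:**
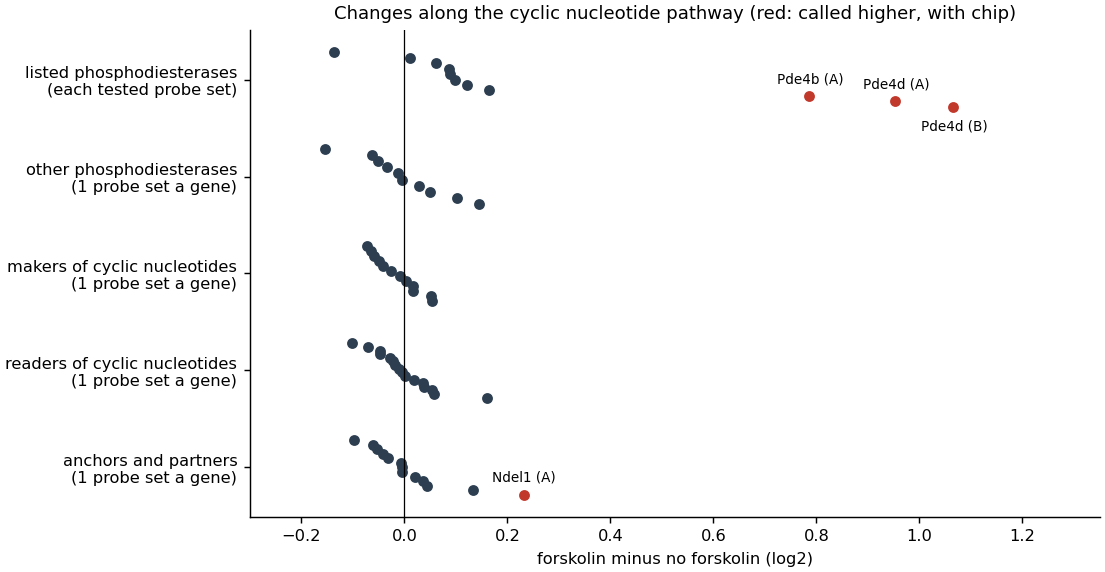
Change with forskolin (log2) of each tested probe set of the listed phosphodiesterases (top) and of 1 probe set per tested gene in 4 lists of the cyclic nucleotide pathway, with called rises in red and their chip in brackets. Pde4b and Pde4d stand at 0.79 to 1.07, Ndel1 at 0.23 and every uncalled point between -0.15 and 0.16.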

How the data were processed

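For each chip the authors deposited a table of processed log2 values. The sources used here do not give their background correction, probe summary or scaling, and base 2 was inferred from the range of the values. Array medians of a chip lay within 0.1 (log2), so the scaling was kept. No detection calls were used.

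Symbols came from GEO's annotation of the chips, updated by Entrez number to RefSeq (GRCr8). Chip A had 1 symbol for 12783 of 15866 probe sets, several for 312 and none for 2771, and chip B 1 for 7564 of 15276, several for 100 and none for 7612.

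Each chip was fitted alone with limma 3.58.1 in R 4.3.3 (lmFit, eBayes with an intensity trend, two-sided), after probe sets whose mean linear value lay under the 30th percentile were left out. This left 11106 (A) and 10693 (B) for the test, with p-values adjusted by Benjamini-Hochberg over the chip. The median SE was 0.04 and 0.09 (log2). The test was tried on simulated data. A listed gene counts by its brightest probe set in the test, with chip A taking precedence. The named genes are all listed phosphodiesterases, the reference genes, the called genes (or the 2 with the smallest p) of each list, and the 5 nearest genes by distance; Pde2a, Pde4c, Pde4dip and the genes named as under the filter were chosen after their values were seen. The members and lists were chosen with earlier results of these data known.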

Additional observations from a re-analysis of the deposited data

How the results depend on the processing

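Alternatives were quantile normalization, median centring, no filter, a filter at the 50th percentile, eBayes without a trend, each array left out in turn and the replicate number as a block. When 1 array is left out, the lone sample is assumed to vary like the other group. Pde4d (1370569_at) kept its call in all 10 settings, at 0.81 to 1.10 (log2), and Pde4b (1374157_at) in all 9 in which it was tested, at 0.66 to 0.91. The filter at the 50th percentile left Pde4b, Pde4a and Pde1b out. Pde4d on chip B kept its call in 9 of 10, and the 8 uncalled probe sets gained none. The sign of Pde8a on chip B varied with the array left out (-0.094 to 0.12), and so did that of the dim Pde10a probe set (-0.032 to 0.019, with 0.0050 without no forskolin replicate 2), in a fit without filter added after seeing the data.

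Probe sets called lower on chip A numbered 140, but 277 with median centring, 46 with the replicate block, and 83 (without forskolin replicate 1) to 192 with arrays left out. Called higher on chip A were 226, but 300 with median centring and 159 with the replicate block. On chip B, 16 were called higher, 27 under quantile normalization and 10 to 41 with arrays left out. There 1 was called lower, 3 under quantile normalization, 2 with the replicate block and 0 to 57 with arrays left out. The causes were not tested. Same-numbered samples deviated together with r = 0.00 on chip A and 0.20 on chip B, and nothing in the labels says that the numbers pair samples. The block left the calls of Pde4d and Pde4b in place.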
